A study of Homo sapiens with 6 samples.

Results

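AP3B1, MXD1, RGS1, F3, TNFSF13B and ABTB2 are interferon-stimulated genes that the study named at enhancers, the gene-distal DNA elements that raise transcription. Their accessible regions were described here in EndoC-βH3, a line of human pancreatic beta cells that divides by means of removable transgenes. A promoter region was any accessible region within 2 kb of where a protein-coding transcript of one of the genes starts in GENCODE 44. A distal region was any other region whose midpoint had its nearest protein-coding start site at one of the genes, within 100 kb. By this rule 56 of 108542 regions belonged to the genes, 6 of them at promoters and 50 distal. The whole table held 20094 promoter regions and 88448 distal ones, of which 55158 lay within 100 kb of a start site.

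Chromatin accessibility had been measured by ATAC-seq, in which a transposase cuts open DNA and leaves sequencing adapters, so that reads pile up where nucleosomes are absent. There were 3 libraries of senescent cells, treated for 3 weeks with 4-hydroxytamoxifen to switch on a Cre recombinase that removes hTERT and SV40 large T antigen, and 3 libraries of non-senescent cells without that treatment. Both groups came from the same single line and 100000 cells entered each library. The deposited table gives 1 mean signal per region, averaged by the authors over all 6 libraries. The table has no value of a single library, so every level below is a mean over both groups with no error, its values do not show how deeply single libraries were sequenced, and nothing is said about a change in senescence. The study picked these genes among elements whose accessibility differed between these same samples, so their membership is not independent evidence about them.

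Interferons bind receptors at the cell surface, and the signal reaches the nucleus through STAT proteins and interferon regulatory factors. STAT dimers bind the gamma-activated site, GAS, and interferon regulatory factors bind the interferon-stimulated response element, ISRE. The 6 genes have unlike roles. AP3B1 encodes the beta subunit of an adaptor complex that sorts cargo to lysosomes and related organelles. MXD1 pairs with MAX and represses genes with E-boxes, opposing MYC. RGS1 shortens signalling of G-protein-coupled receptors and is known from lymphocytes. F3 is tissue factor, the cell-surface receptor that starts coagulation. TNFSF13B is the cytokine BAFF, which keeps B cells alive. ABTB2 is a protein with ankyrin repeats and a BTB domain. RGS1, TNFSF13B and ABTB2 were in the study's own list of interferon-stimulated genes under these symbols.

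The strongest distal region of each gene is shown by the 100 bases around its midpoint, since the comparison between distal elements and promoters rests on these regions. All sequences are from hg38 on the plus strand. Capitals mark matches to any of 12 motifs searched on both strands. Their shares are given further down, with their letters except for the NF-kB site and the CTCF core.
RGS1 distal region 1, chr1:192489579-192489678: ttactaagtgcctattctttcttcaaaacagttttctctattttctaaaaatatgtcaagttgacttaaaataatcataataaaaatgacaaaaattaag
F3 distal region 5, chr1:94551147-94551246: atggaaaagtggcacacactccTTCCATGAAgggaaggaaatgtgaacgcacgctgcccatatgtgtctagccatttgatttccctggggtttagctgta
TNFSF13B distal region 6, chr13:108346544-108346643: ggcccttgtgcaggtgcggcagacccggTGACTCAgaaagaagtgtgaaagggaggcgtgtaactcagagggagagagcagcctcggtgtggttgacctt
AP3B1 distal region 5, chr5:78017141-78017240: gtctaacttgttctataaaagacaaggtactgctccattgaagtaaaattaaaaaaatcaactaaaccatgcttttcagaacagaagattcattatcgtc
ABTB2 distal region 7, chr11:34371629-34371728: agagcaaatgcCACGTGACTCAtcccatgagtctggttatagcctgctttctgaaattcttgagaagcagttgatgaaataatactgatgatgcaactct
MXD1 distal region 1, chr2:69933907-69934006: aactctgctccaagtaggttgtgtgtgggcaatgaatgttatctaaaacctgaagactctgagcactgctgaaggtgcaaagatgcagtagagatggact
Numbers run from the lower to the higher coordinate within a gene. In F3 the capitals are a GAS, in TNFSF13B an AP-1 site, and in ABTB2 an E-box that runs into an AP-1 site. The 300 bases around the midpoint of the RGS1 region had a GC content of 24.3%. Only 0.0109% of distal regions within 100 kb of a start site had as low a GC content, whose part in the level was not tested.

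The promoters of the 6 genes ranged from one of the most accessible in these cells to none at all. Levels are given as mean signal per kb, the authors' mean divided by the width of the region, so that regions of unlike width can be set side by side. The MXD1 promoter, chr2:69914163-69915718, had a mean signal of 4743 and 3048 per kb. That level stood at a percentile of 99.3 among all promoter regions, whose median was 507 per kb and whose upper quartile was 914 per kb. ABTB2 had a pair of promoter regions. The one over its start site, chr11:34356684-34358217, had a mean signal of 1358 and 885 per kb, a percentile of 73.6. The one upstream, chr11:34358436-34359473, had a mean signal of 355 and 342 per kb, a percentile of 36.2.

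The other promoters lay near the middle of the range of promoter regions. AP3B1 had 1 region, chr5:78294292-78295932, with a mean signal of 892 and 543 per kb, a percentile of 52.9. F3 had 1 region, chr1:94540872-94542567, with a mean signal of 904 and 533 per kb, a percentile of 52.1. TNFSF13B had 1 region, chr13:108269720-108270827, with a mean signal of 446 and 403 per kb, a percentile of 41.7. The MXD1 promoter had 5.61 times the level of that of AP3B1, 5.72 times that of F3 and 7.57 times that of TNFSF13B. Among the strongest promoter regions of all genes that had one, whose median was 695 per kb, AP3B1 stood at a percentile of 38.6, F3 at 37.8 and TNFSF13B at 27.9, all below the middle. RGS1 had no promoter region, which it shared with 2193 genes, 12.4% of the 17686 protein-coding genes that had any region. For comparison, 78.7% of all 19676 protein-coding genes had 1 or more promoter regions.

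The promoter sequences of MXD1 and RGS1 differed in composition as well as in accessibility, and are shown for that reason. The MXD1 line is the centre of its promoter region on the plus strand of hg38. The RGS1 and ABTB2 lines are the 250 bases before the start site as RefSeq gives them for GRCh38.p14, read in the direction of the gene. Entries for 5 of the 6 genes were matched there, and AP3B1 was not. Capitals again mark motif matches.
MXD1 promoter region, chr2:69914891-69914990: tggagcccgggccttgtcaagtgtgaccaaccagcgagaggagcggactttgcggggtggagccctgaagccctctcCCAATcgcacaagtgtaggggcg
ABTB2 before the start site, minus strand, chr11:34358011-34358260: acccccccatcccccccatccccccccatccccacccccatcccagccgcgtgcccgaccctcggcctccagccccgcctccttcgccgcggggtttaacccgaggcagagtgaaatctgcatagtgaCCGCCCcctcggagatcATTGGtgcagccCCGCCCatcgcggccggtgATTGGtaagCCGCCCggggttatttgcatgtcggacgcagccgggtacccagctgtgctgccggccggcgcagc
RGS1 before the start site, plus strand, chr1:192575523-192575772: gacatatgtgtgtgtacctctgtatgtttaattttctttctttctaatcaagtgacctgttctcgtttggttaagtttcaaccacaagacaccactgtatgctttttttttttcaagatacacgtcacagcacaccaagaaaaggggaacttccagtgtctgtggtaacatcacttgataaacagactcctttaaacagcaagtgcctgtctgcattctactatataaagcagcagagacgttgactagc
The GC content before the start site was 70.4% for ABTB2, 64.4% for MXD1 and 78.0% for F3, against 42.8% for TNFSF13B and 39.2% for RGS1. The median of 15307 protein-coding genes was 62.4%. The ratio of observed to expected CpG, which is high in CpG islands, was 0.792 for ABTB2, 0.665 for MXD1 and 0.940 for F3. It was 0.316 for RGS1, and the TNFSF13B sequence before the start site held no CpG at all. That sequence lay wholly outside the accessible TNFSF13B promoter region. In the window around the midpoint of that region, the GC content was 57.3% and the CpG ratio 0.407. Before the start site, MXD1 and RGS1 were thus on opposite sides of the median of 62.4% in GC content. In the window around the midpoint of its accessible promoter region, MXD1 had a GC content of 61% and a CpG ratio of 0.591. Both were below the medians of all promoter regions, 65.7% and 0.759. The side on which MXD1 lay therefore depended on the window. None of the 12 motifs matched the RGS1 sequence before the start site, whereas GC boxes were found there for ABTB2, MXD1 and F3. GC boxes were found in 56.7% of the sequences before the start sites of the 15307 genes.

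**Figure D1:**
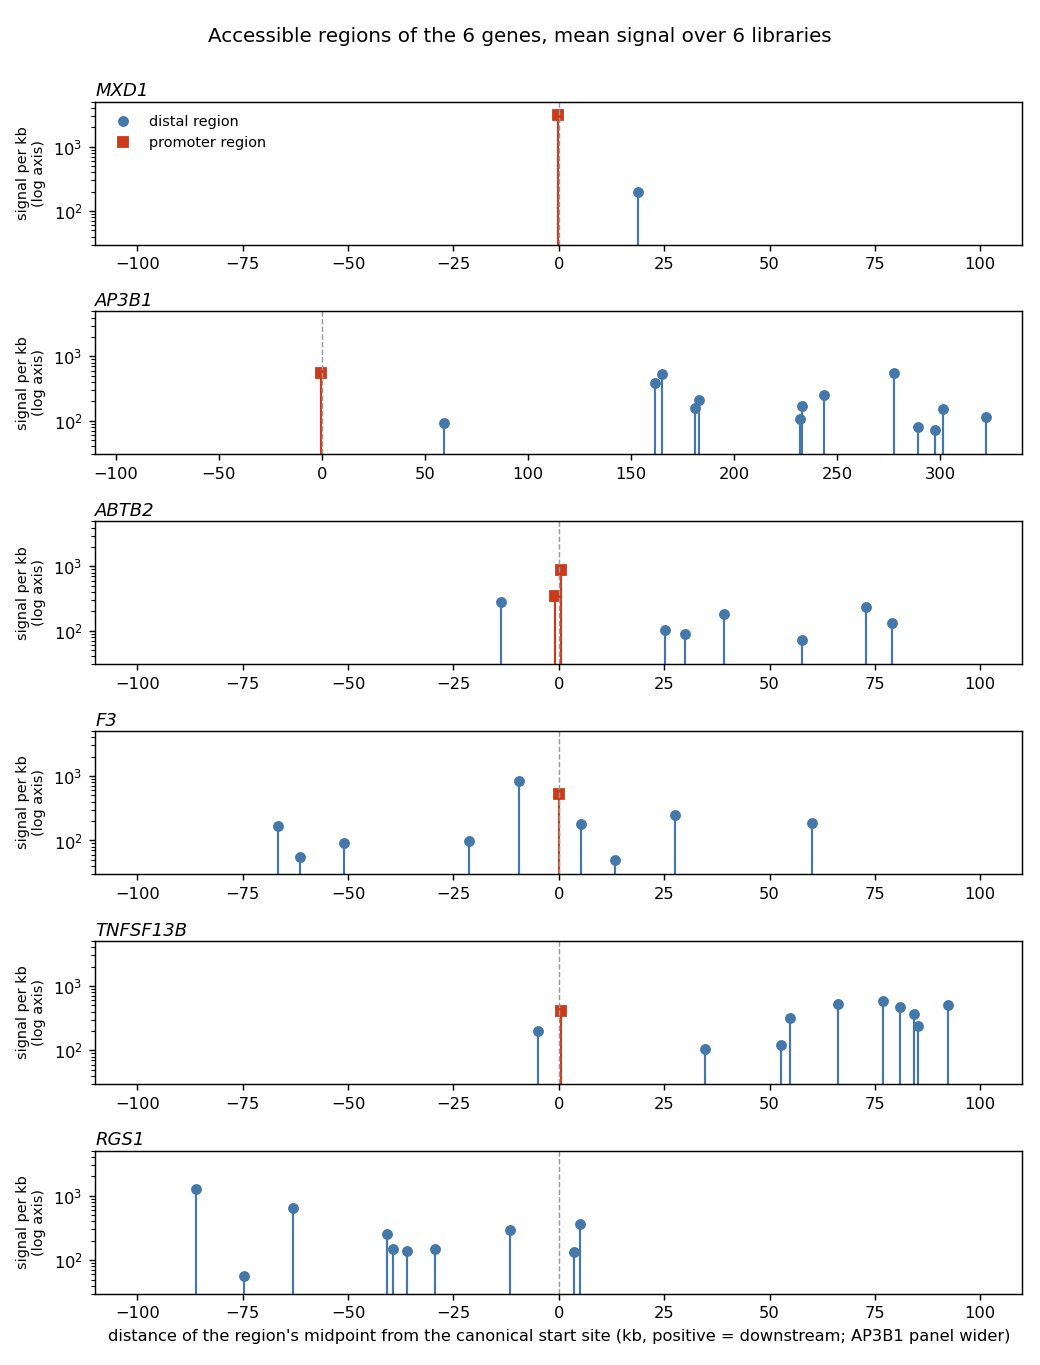
Mean signal per kb (log axis, authors' mean over 6 libraries) of every promoter region (red squares) and distal region (blue circles) of the 6 genes against the distance of its midpoint from the canonical start site in kb, with downstream positive. The MXD1 promoter reached 3048 per kb with 1 distal region, RGS1 had 10 distal regions and no promoter region, and 8 of the 10 TNFSF13B regions lay more than 50 kb downstream.

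RGS1 had the most accessible distal region of the 50. Its 10 distal regions were spread from 86.1 kb upstream to 4.93 kb downstream, and all 10 midpoints lay inside ENSG00000285280, an annotated non-coding gene that spans the locus. Region 1, chr1:192488952-192490305, was 86.1 kb upstream and had a mean signal of 1726 and 1275 per kb. Among the distal regions within 100 kb of a start site this was a percentile of 97.1. Region 3, chr1:192512127-192513298, was 63.1 kb upstream and had a mean signal of 761 and 649 per kb, a percentile of 88.9. These 2 regions held 78.3% of the distal signal of the gene. Nearer to the gene the levels were lower. Region 8, chr1:192563924-192564673, 11.5 kb upstream, had 297 per kb. Region 10, chr1:192580533-192580867, just past the end of the gene, had 364 per kb. Region 9, chr1:192579152-192579655, had its midpoint in an untranslated part of RGS1 and had 132 per kb.

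The other 5 RGS1 regions filled the interval between the strong upstream elements and the gene, or lay between those elements. Region 4, chr1:192534664-192535277, 40.8 kb upstream, had 251 per kb. Region 5, chr1:192536424-192536614, 39.3 kb upstream, had 147 per kb. Regions 4 and 5 were also inside a second non-coding gene, ENSG00000236069. Region 6, chr1:192539703-192539967, 35.9 kb upstream, had 138 per kb. Region 7, chr1:192546121-192546448, 29.5 kb upstream, had 150 per kb. Region 2, chr1:192500861-192501085, was the weakest, with a mean signal of 12.7 and 56.5 per kb, a percentile of 3.47. Strongest and weakest thus differed 22.6-fold per kb, the widest range among the genes. Among the genes without a promoter region, 61 of 2193, or 2.78%, had at least as many distal regions as RGS1, and their median was 2.

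F3 also had most of its distal signal in 1 element. Region 5, chr1:94550474-94551919, was 9.44 kb upstream in an intron of the non-coding gene ENSG00000288736 and had a mean signal of 1232 and 852 per kb, a percentile of 93.1. It held 76.8% of the distal signal of the gene and was 1.60 times as accessible per kb as the F3 promoter. The highest of the other 8 regions had 252 per kb. Region 4, chr1:94536273-94536584, was in an intron of F3 and had 179 per kb. Downstream of the gene, region 2, chr1:94514127-94514361, had 252 per kb. Region 1, chr1:94481435-94481792, at 60.1 kb downstream, had 189 per kb. Both lay on exons annotated to ABCD3, the gene of a peroxisomal transporter, although the nearest protein-coding start site was that of F3.

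The remaining F3 regions were weak. Region 3, chr1:94528446-94528627, just past the end of the gene, had a mean signal of 8.98, the lowest of the 50, and 49.3 per kb. Region 6, chr1:94563040-94563323, 21.4 kb upstream, had 99.2 per kb. Region 7, chr1:94592712-94592888, 51.0 kb upstream, had 92.5 per kb. Region 8, chr1:94602975-94603193, 61.3 kb upstream, had 55.6 per kb. These were all below the lower quartile of 113 per kb of distal regions within 100 kb of a start site. Region 9, chr1:94608053-94608795, 66.7 kb upstream, had 165 per kb.

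TNFSF13B had its distal signal in a cluster far downstream. Of its 10 distal regions, 8 lay between 52.8 and 92.3 kb downstream of the start site, beyond the end of the gene, and 6 of these were in introns of the non-coding gene ENSG00000283384. Region 6, chr13:108346478-108346710, had the highest level at 583 per kb with a mean signal of 136, a percentile of 86.8. Region 5, chr13:108335204-108336633, had 516 per kb and, being wider, the highest mean signal at 738. Region 10, chr13:108361671-108362267, had 512 per kb. The level was thus alike over these 3 regions, and the table gives no spread to set their differences against. Region 7, chr13:108350409-108351047, had 468 per kb. Region 8, chr13:108353626-108354218, had 365 per kb. Region 9, chr13:108354649-108355064, had 238 per kb. All 6 regions of the cluster inside ENSG00000283384 were above the median of distal regions within 100 kb of a start site, 187 per kb.

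The other 4 TNFSF13B regions lay outside that non-coding gene. Region 4, chr13:108324423-108324629, 54.8 kb downstream, had 316 per kb, more than region 9. Region 3, chr13:108322357-108322639, 52.8 kb downstream, had 120 per kb. Region 2, chr13:108304069-108304905, was in an intron of the gene and had 104 per kb. Region 1, chr13:108264745-108264919, 4.89 kb upstream of the canonical start site, had 202 per kb and lay in an intron of a longer transcript. The strongest region of TNFSF13B was 1.45 times as accessible per kb as its promoter, and 5 of its 10 regions were in the upper 25% of distal regions within 100 kb of a start site.

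AP3B1 had the most distal regions, 13, but 12 of them were tied to the gene through 1 annotated start site. This site, at position 78039150 of chromosome 5, is 256 kb downstream of the canonical start site at 78294698 and belongs to a short protein-coding transcript. With canonical start sites alone, AP3B1 had 1 distal region. All 13 were downstream of the canonical start site. Of the 13, 10 were in introns of AP3B1, and regions 1 to 3 were past its end. Region 5, chr5:78016795-78017587, had a mean signal of 442 and 558 per kb, a percentile of 86.0. Region 11, chr5:78129428-78129984, had 539 per kb. Region 12, chr5:78132989-78133310, had 391 per kb. These 3 were in the upper 25%, and the strongest was 1.03 times as accessible per kb as the promoter, a ratio near 1 for which no error is known.

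The other AP3B1 regions were at or below intermediate levels. Region 6, chr5:78050864-78051346, had 254 per kb. Region 9, chr5:78111366-78111985, had 209 per kb. Region 7, chr5:78061511-78062215, had 171 per kb. The last of these was already below the median of 187 per kb. Region 10, chr5:78112927-78114107, had 158 per kb. Region 2, chr5:77993195-77993424, had 152 per kb. Region 1, chr5:77971981-77973145, had 114 per kb and, at 322 kb, was the farthest from the canonical start site. The weakest regions came last in this order. Region 8, chr5:78062639-78062869, had 108 per kb. Region 13, chr5:78235438-78235893, had 93.8 per kb and was the one that canonical start sites kept. Region 4, chr5:78005095-78005690, had 79.4 per kb, and region 3, chr5:77997168-77997593, had 72.1 per kb.

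ABTB2 had 7 distal regions of low to intermediate level, 6 of them in its own introns. Region 7, chr11:34371354-34372004, was the only one upstream, at 13.7 kb, and had the highest level, 283 per kb, a percentile of 67.4. Region 2, chr11:34284544-34285584, 72.9 kb downstream, had 231 per kb. Region 4, chr11:34318532-34319028, 39.2 kb downstream, had 180 per kb. No region of ABTB2 reached the upper 25%. Region 1, chr11:34278739-34279142, had 130 per kb. Region 6, chr11:34332328-34333239, had 102 per kb. Region 5, chr11:34327841-34328164, had 87.4 per kb, and region 3, chr11:34299999-34300575, had 72.7 per kb. The strongest of the 7 had 0.320 times the signal per kb of the main ABTB2 promoter region.

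MXD1 had 1 distal region, chr2:69933446-69934468, in an intron of the gene 18.8 kb downstream of the start site. It had a mean signal of 201 and 196 per kb, a percentile of 52.5, and 0.0644 times the level of the promoter. Of the 17686 genes with any region, 46.4% had at most 1 distal region. Among the 185 genes with a promoter at least as accessible per kb as that of MXD1, the median was 1 distal region, so few distal regions beside such a promoter were not unusual. Neighbouring levels in the order of the genes cannot be separated, since no error is given for any of them.

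As a set, the distal regions of the 6 genes were no more accessible than others. Their median was 179 per kb, against 168 per kb over all distal regions and 187 per kb over those within 100 kb of a start site. Of the 50, 27 (54%) were above the first of these medians and 24 (48%) above the second. In the upper 25% of distal regions within 100 kb there were 12 (24%), and in the upper 10% there were 2 (4%), RGS1 region 1 and F3 region 5. A share of 50, 25 and 10% would be the same as the background. RGS1, F3, TNFSF13B and AP3B1 supplied the 12, with 3, 1, 5 and 3 regions.

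**Figure D2:**
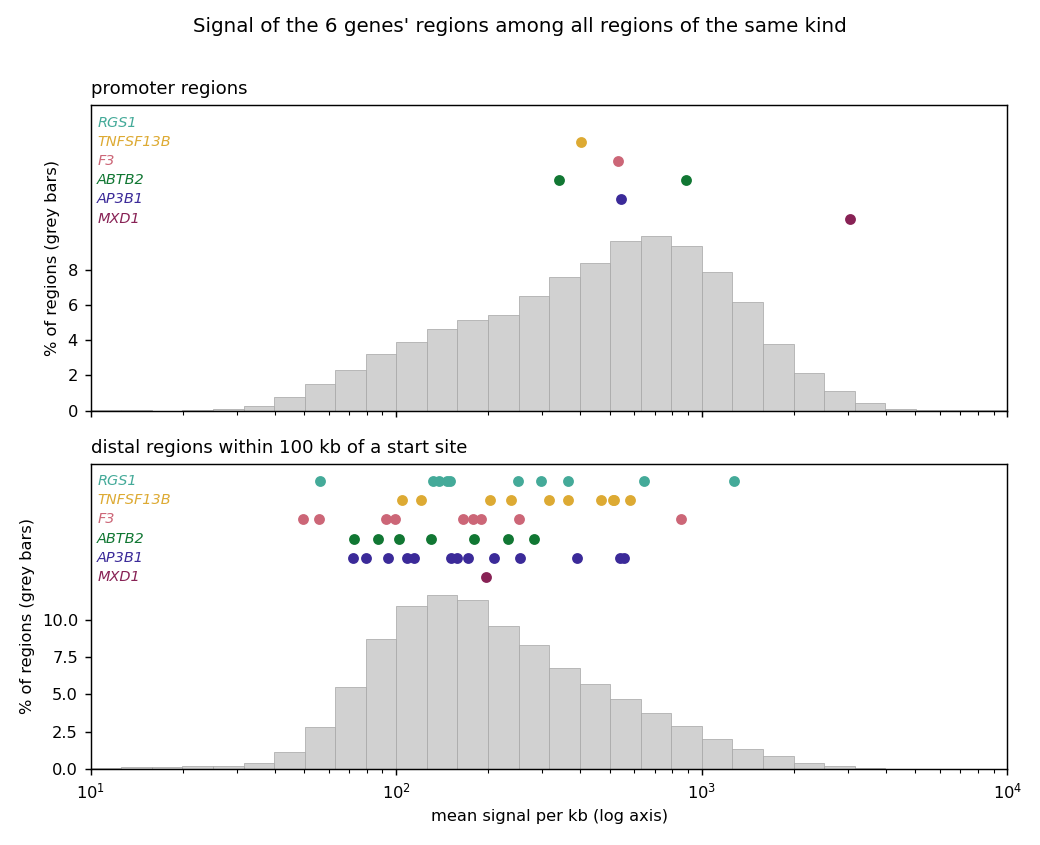
Share of regions (grey bars, %) by mean signal per kb (log axis) for all promoter regions and for distal regions within 100 kb of a start site, with the regions of the 6 genes as coloured points above the bars (their height only separates the genes). The MXD1 promoter at 3048 per kb lies in the upper tail, and the distal points cover nearly the whole range from 49.3 to 1275 per kb.

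The number of distal regions was high for 5 of the 6 genes. Over all genes with 1 or more regions the median was 2, the upper quartile 4 and the upper 10% began at 8. AP3B1 had 13, RGS1 and TNFSF13B 10 each, F3 9, ABTB2 7 and MXD1 1. With canonical start sites alone, AP3B1 had 1, and 4 of the 6 genes had more than the median gene. With start sites of genes of all types, F3 had 1 and TNFSF13B none. At least 10 distal regions were found for 6.76% of genes and at least 13 for 3.54%. The genes had been picked by the study for elements of this kind, so a high number describes them and is no separate finding. The regions lay farther from their start site than is common, with a median of 43.8 kb against 24.0 kb over distal regions within 100 kb. For 12 AP3B1 regions this distance was taken to the start site at 78039150, 256 kb from the canonical one. The nearest of all the regions was at 3.63 kb and the farthest at 94.0 kb. The farthest was AP3B1 region 12, which was 162 kb from the canonical start site. A further 9 regions with one of the genes as the nearest lay beyond 100 kb and were not members, 4 of ABTB2, 3 of AP3B1 and 2 of TNFSF13B. The nearest of these was an ABTB2 region 101 kb away with 198 per kb, just outside the limit, and the member just inside it was AP3B1 region 12.

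**Figure D3:**
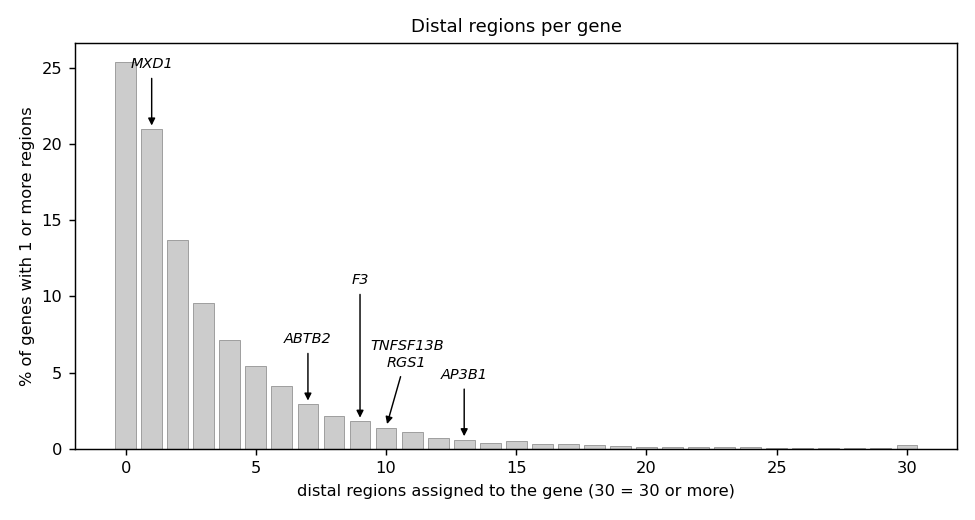
Share of the genes with 1 or more regions (%, vertical axis) by the number of distal regions assigned to them (horizontal axis, 30 standing for 30 or more), with arrows at the 6 genes. AP3B1 had 13 (1 with canonical start sites alone), MXD1 had 1, and the median gene had 2.

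By place, 36 of the 50 midpoints (72%) were in introns and 11 (22%) between genes. Of the others, 2 were on exons of ABCD3 and 1 was in an untranslated part of RGS1. The assignment to the nearest protein-coding start site leaves non-coding genes aside. When start sites of genes of all types were used, RGS1 kept 3 distal regions, F3 1 and TNFSF13B none, while AP3B1 had 10, ABTB2 6 and MXD1 2. The distal elements of RGS1, F3 and TNFSF13B thus had, for the most part, a start site of another annotated gene nearer than that of the gene itself. No value in the table ties a region to the gene it acts on.

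The balance between distal elements and promoter divided the genes. The strongest distal region exceeded the promoter per kb in F3 (1.60 times), TNFSF13B (1.45 times) and AP3B1 (1.03 times), and was below it in ABTB2 (0.320 times) and MXD1 (0.0644 times). For mean signal not divided by width the ratio was 1.36 in F3 and 1.65 in TNFSF13B, but 0.496 in AP3B1, whose side therefore turned with the scaling. It also turned with canonical start sites alone, which left AP3B1 region 13 at 93.8 per kb, against 543 per kb at the promoter. With start sites of genes of all types, TNFSF13B had no distal region to compare. F3 then had 1 distal and 2 promoter regions, and its ratio is not given for that setting. Over the 11003 genes with both kinds of region, the strongest distal region exceeded the promoter per kb in 4176, or 38.0%. The median ratio per kb was 0.681. Without division by width, the distal region exceeded the promoter in 28.1% of these genes, with a median ratio of 0.394. RGS1 could not be placed on this scale, having no promoter region. The share of a gene's distal signal in its strongest region by mean signal was 76.8% in F3 and 54.3% in RGS1. It was 36.6% in TNFSF13B, 33% in ABTB2 and 25.4% in AP3B1. By nearest protein-coding start site, F3 and RGS1 thus had 1 dominant element, while in AP3B1, TNFSF13B and ABTB2 the signal was spread over several.

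**Figure D4:**
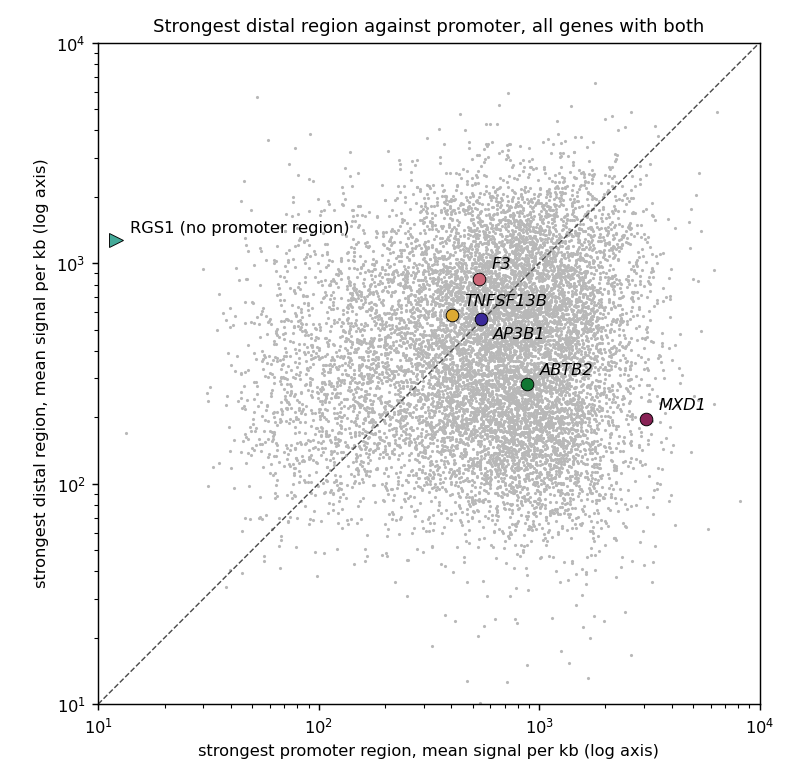
Mean signal per kb of the strongest distal region (vertical, log axis) against that of the strongest promoter region (horizontal, log axis) for 11003 genes with both (grey points), with 5 of the 6 genes as coloured points and the dashed line at equal levels. RGS1 is drawn at the left edge at 1275 per kb because it had no promoter region. F3 and TNFSF13B lie above the line, ABTB2 and MXD1 below it, and AP3B1 just above it. AP3B1 would fall below it without division by width, or with canonical start sites alone.

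The letters to which interferon-activated factors bind were looked for in the 300 bases around each midpoint, on both strands. In 14 of the 50 distal regions this window was wider than the region, so that a match could lie just outside it. A core of the ISRE, spelled GAAANNGAAA, was found in 3 of the 50 distal regions (6%). Over distal regions within 100 kb of a start site the share was 3.78%, and over all distal regions it was 7.07%, owing to a share of 12.5% in the 33290 regions beyond 100 kb. The same pattern read backwards, which has the same base composition, was also found in 3 of the 50 regions. A count of 3 therefore does not set the genes apart. The matches were in AP3B1 and ABTB2, and another was in the AP3B1 promoter region, where 2.25% of all promoter regions had one. These sites are shown with 10 bases on each side, all read on the minus strand of hg38, with the core in capitals.
AP3B1 promoter region, chr5:78295061-78295090: aaacaagcaaGAAAAGGAAAagcgatcgtg
AP3B1 distal region 1, chr5:77972447-77972476: tgactaacaaGAAAAGGAAAcagtgctcat
ABTB2 distal region 1, chr11:34279041-34279070: accctagcaaGAAAACGAAAcacctgtgca
ABTB2 distal region 3, chr11:34300271-34300300: catggctttgGAAATTGAAAggccttcagt
The 3 distal sites were in regions below the median level, with 114, 130 and 72.7 per kb. Over whole regions rather than 300 bases, 4 of the 50 held a core, the added one being TNFSF13B region 8, a share of 8% against 6.88% within 100 kb of a start site.

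The GAS, spelled TTCNNNGAA, was found in 5 distal regions (10%) against 8.61% within 100 kb of a start site, and in the AP3B1 promoter region. The 5 were in AP3B1 and F3, and the strongest F3 element, region 5, was among them. The match at F3 region 8 lay just outside the region. Over whole regions 11 of the 50 (22%) held a GAS, against 14.8%, and all 6 genes then had 1 or more. Both kinds of interferon letters were present in the window of the AP3B1 promoter region. These sites are shown for F3 region 5, chr1:94551159-94551187 on the plus strand, and for the AP3B1 promoter region, chr5:78295210-78295238 on the plus strand.
F3 distal region 5: cacacactccTTCCATGAAgggaaggaaa
AP3B1 promoter region: attccatcttTTCAATGAAagtcttgggg

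The AP-1 site, bound by JUN and FOS dimers and spelled TGACTCA or TGAGTCA, was found in 7 of the 50 distal regions (14%), against 7.05% within 100 kb of a start site. The 7 were spread over AP3B1, ABTB2, RGS1, F3 and TNFSF13B, and they included the strongest regions of ABTB2 and TNFSF13B per kb. Read backwards it was found in 4 of the 50, against 5.02%. Among the other motifs, the homeobox core TAATTA, bound by factors such as PDX1, was in 8 regions (16%) against 9.57%. Over whole regions the homeobox core was in 14 (28%) against 15.1%, and the AP-1 site in 10 (20%) against 11.6%. The forkhead site GTAAACA was in 5 (10%) against 9.26%, 3 of them at RGS1.

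Shares of the remaining motifs lay on both sides of the background. The MAF site TGCTGAC was in 2 regions (4%) against 7.67%, the RFX site GTTGCCA in 2 (4%) against 5.52%, and the GC box GGGCGG in 1 window (2%), where it lay just outside the region, against 11.1%. The E-box CACGTG, the letters that MXD1 itself recognises, was in 4 (8%) against 5.02%, and the CCAAT box in 15 (30%) against 29.5%. The CTCF core was in none of the 50 windows against 3.77%. An NF-kB site was in 1 (2%) against 4.37%, and that one lay in RGS1 region 3, the second strongest element of the gene, at chr1:192512615-192512644 on the plus strand.
RGS1 distal region 3: tcccacagctGGGGCTTTCCtcatttccga
In 16 of the 50 windows (32%) none of the 12 motifs was found, against 30.8%, and RGS1 region 1 was one of these. With 50 regions, several of them neighbours in 1 locus, differences of a few regions cannot be read as more than a description. A match is one of letters, not a binding site.

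In the study's wider list of interferon-stimulated genes, 341 of 346 entries were matched to a protein-coding gene. Of these, 269 (78.9%) had a promoter region, against 78.7% of all protein-coding genes. Their distal regions numbered 1098, with a median of 2 per gene, against 1 over all protein-coding genes. Of these regions, 57.2% were above the median of all distal regions, against 55.1% of those assigned to any gene. Of the 206 listed genes with both kinds of region, 84 (40.8%) had a distal region above the promoter per kb. The pattern of RGS1, distal regions without a promoter region, was found for 37 of the 341 matched genes, RGS1 among them. Over all protein-coding genes it was found for 2193 of 19676, a similar share.

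The identity of the cells was read from markers. All 12 beta cell markers had a promoter region, as had 78.7% of all protein-coding genes. The levels of the beta cell markers ran from 286 per kb at G6PC2 to 2715 per kb at INS, the insulin gene, with a median of 1346. Of 8 leukocyte markers 2 had one, among them CD14 with 460 per kb, and PTPRC, CD3E and SPI1 had none. RGS1 and TNFSF13B, genes best known from blood cells, thus had accessible distal regions in libraries in which most leukocyte markers had no promoter region. Distal regions without a promoter region were also found for 4 of the 8 leukocyte markers, among them PTPRC with 5 distal regions of up to 795 per kb. Promoter regions were also found for 2 of 4 endothelial, 3 of 4 fibroblast, 3 of 4 acinar and 2 of 3 liver markers. Their median levels were 175, 119, 174 and 528 per kb in that order. The acinar marker CPA1 had 1298 per kb and the liver marker APOA1 677 per kb, both above G6PC2.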

How the data were processed

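The members and lists were chosen with earlier results of these data known. The authors' methods state that paired-end reads of 6 ATAC-seq libraries were trimmed (Trim Galore), aligned to hg38 (Bowtie2), cleared of mitochondrial and duplicate reads, shifted for the transposase offset and used to find peaks (MACS2). They then counted reads in the joined peak set and ran DESeq2, versions not given in the sources used here. Duplicate removal and the union of peaks affect the width and number of regions, and hence the level per kb. The deposited mean signal is the authors' average of normalised counts over all libraries. The table's 5 other columns hold the authors' comparison of the groups (fold change, its error, statistic, p-value and adjusted p-value) and were not used here, so no test was run and groups were not compared.

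Region starts were read as counted from 0, and printed starts have 1 added. No region ran past a chromosome end of hg38, and 0 regions overlapped. Start sites came from GENCODE 44. Levels are mean signal divided by width in kb, percentiles are among regions of the same kind, and motifs were sought in 300 bases around midpoints. All regions of the 6 genes are named. Values of some listed genes are not reported here, though the counts include them. Assignment was tested on simulated regions. Python 3.11.15, pandas 2.3.3 and numpy 2.4.6 were used. Alternatives were other promoter windows, distance limits, start sites, a minimum signal, unscaled levels, chromosome medians and whole-region motifs.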

Additional observations from a re-analysis of the deposited data

How the results depend on the processing

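The 12 counts, medians and ratios of the 6 genes were recomputed under those of 12 alternatives that bear on each, which gave 63 values, and 48 of these were within 1.5 times the reported value. Levels not divided by width or set against their chromosome have other units, so the median was compared there by its ratio to that of all distal regions, which was 1.19 and 1.08 in place of 1.07. With start sites of genes of all types there were 10 promoter and 22 distal regions, 10 of the latter above the median of all distal regions and 1 with an ISRE core. With a distal limit of 50 kb there were 26 distal regions, 13 above the median and 0 with an ISRE core. With a mean signal of at least 50 there were 33 distal regions, 15 above the median, and 2 promoter regions above the median of promoters, in place of 4. That last count was also 2 with canonical start sites and 2 with a promoter window of 0.5 kb. The drops in distal regions follow from the construction of these settings, which keep fewer regions or offer more start sites. The median of distal regions within 100 kb and the ratio of distal to promoter signal without division by width were chosen after seeing the data.

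No paired analysis was possible because single libraries have no values in the table, and for the same reason leaving out each replicate was not run. Error between libraries is therefore unknown for every level, the depth of single libraries cannot be read from the table, and 4 of the 50 distal regions had a mean signal under 20.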

Other observations

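Among 16 widely used interferon genes, the promoters of STAT2, IRF1 and IRF9, which carry the signal, had higher levels than those of most antiviral effectors. IRF7, another of the interferon regulatory factors, went the other way and had no promoter region. STAT2 had 2133 mean signal per kb, TRIM25, a ubiquitin ligase of RNA sensing, 988, and IRF1 939. IRF9 had 723. Of the antiviral effectors, RSAD2 had 959, above IRF1 and IRF9. OAS3 had 335, OAS1 214, MX1 171, IFI44L 154, ISG15 124, IFIT1 103 and IFITM1 60.0. The effectors IFIT3 and BST2 had no promoter region. The median strongest promoter over all protein-coding genes with one was 695 per kb. These are the authors' means over both groups, with no error, and the difference was not tested.

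All 16 genes together had 24 distal regions, with a median of 1 per gene, the same as over all protein-coding genes.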
